A study of Mus musculus with 6 samples.

Results

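The 10 genes described here encode the machinery that makes and loads peptides for MHC class I molecules. They are the transporter subunit genes Tap1 and Tap2, the loading and editing factor genes Tapbp and Tapbpl, the trimming peptidase gene Erap1, the immunoproteasome subunit genes Psmb8, Psmb9 and Psmb10, and the proteasome activator genes Psme1 and Psme2. They were picked out by gene symbol, from a list drawn up with earlier results of these data known, and all 10 were found among the 55573 rows of the deposited table. RNA-seq read counts came from 3 Matr3 knockout (KO) and 3 wild-type (WT) libraries. All are from Hepa1-6, a line of mouse liver cancer cells, with no further treatment named in the labels. Matr3 encodes matrin 3, a nuclear RNA-binding protein, and was knocked out with CRISPR/Cas9. The labels do not say whether the KO libraries come from 1 clone or several, or whether libraries of a group are separate cultures, so p-values reflect no more than the variation among these 6 libraries, possibly technical.

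Class I molecules show peptides from inside the cell to cytotoxic T cells. Most of these peptides are cut by the proteasome, whose 3 catalytic subunits (encoded by Psmb6, Psmb7 and Psmb5) can be replaced by the interferon-inducible subunits encoded by Psmb9, Psmb10 and Psmb8 to give the immunoproteasome. The PA28 cap, a ring of the Psme1 and Psme2 products, opens the proteasome's gate. Peptides then enter the endoplasmic reticulum through the TAP1-TAP2 transporter, are trimmed by ERAP1, and are fitted to class I chains with the help of tapasin, encoded by Tapbp, and of TAPBPR, encoded by Tapbpl. Many tumour cells keep parts of this pathway low, and interferon raises most of it.

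Libraries held 23126778 to 30794032 counts in the KO and 20736570 to 27578804 in the WT group. Matr3 itself was at 76.0, 86.1 and 75.3 CPM (counts scaled to a common, TMM-adjusted library size) in KO libraries, against 129, 125 and 134 CPM in WT libraries, so its mRNA was lower but present. The counts do not show the edited site. Most hepatocyte markers were low: 7 of 11 were under 1 CPM in every library, with Ttr and Serpina1a at 0, while 4 had enough counts to be tested. The summed hepatocyte list was 1035 to 1097 CPM in KO and 593 to 703 CPM in WT libraries, most of it the keratin genes Krt8 and Krt18. Of 10 leukocyte markers 9 were under 1 CPM in every library, with Cd3e, Adgre1, Itgam and H2-Aa at 0, and the list summed to 8.27 to 9.19 CPM in KO and 9.85 to 11.5 CPM in WT libraries, nearly all of it Cd74. The list of 7 fibroblast or stellate markers summed to 528 to 640 CPM in KO and 585 to 686 CPM in WT libraries, mostly Col3a1, that of 5 endothelial markers to 0.844 to 1.53 against 2.85 to 3.56 CPM, and that of 4 cholangiocyte markers to 645 to 684 against 287 to 316 CPM, mostly Krt19. In bulk RNA, fewer cells of a type and less RNA per cell cannot be told apart, and the part of such cells in the results was not tested. Some libraries stood apart within their group. A chi-square of counts per gene was 3.43 between KO libraries 1 and 3, but 55.1 and 65.99 between KO library 2 and these; it was 6.21 between WT libraries 2 and 3, but 23.1 and 27.5 between WT library 1 and these. Libraries also differed in their trend with GC content: over 14666 genes (not independent replicates), the correlation of GC with each library's departure from the average was 0.27, -0.27 and 0.27 in KO libraries 1 to 3 and -0.03, -0.03 and -0.17 in WT libraries 1 to 3.

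Between KO and WT cells, the genes of peptide loading in the endoplasmic reticulum and of the PA28 cap were higher in part, while the immunoproteasome's catalytic subunits did not pass the test. All 10 genes passed the filter on low counts, with 158 to 9393 reads per library, so none depended on a single group to be tested. Tapbpl, Tapbp and Psme2 rose at an adjusted p under 0.05 (Benjamini-Hochberg, edgeR quasi-likelihood), 3 of the 10, against 7.69% of all 14842 tested genes. By edgeR 0 fell, against 7.48% of all tested genes, and at an unadjusted p under 0.05 5 were higher and 0 lower. Every KO library stood above every WT library for 6 of the 10 (Tap1, Tap2, Tapbp, Tapbpl, Psme1 and Psme2), as it did for 18.3% of all tested genes, and for 0 was every KO library below, against 18.4%. Without overlap in either direction were thus 6 of the 10, against 36.6% of all tested genes. The groups overlapped for Psmb8, Psmb9, Psmb10 and Erap1. The median log2 fold change, KO over WT, was 0.21 over the 10 genes and -0.02 over all tested genes. With DESeq2, with voom and with limma on log2(FPKM + 1), the same numbers came out: 3 of the 10 higher and 0 lower. With KO library 2 and WT library 1 both left out, edgeR called 6 of the 10 genes higher and 1 lower, against 3 and 0 with all libraries. Calls over all genes rose as well in that fit, to 3750 higher and 3806 lower, against 1142 and 1110 with all libraries.

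**Figure D1:**
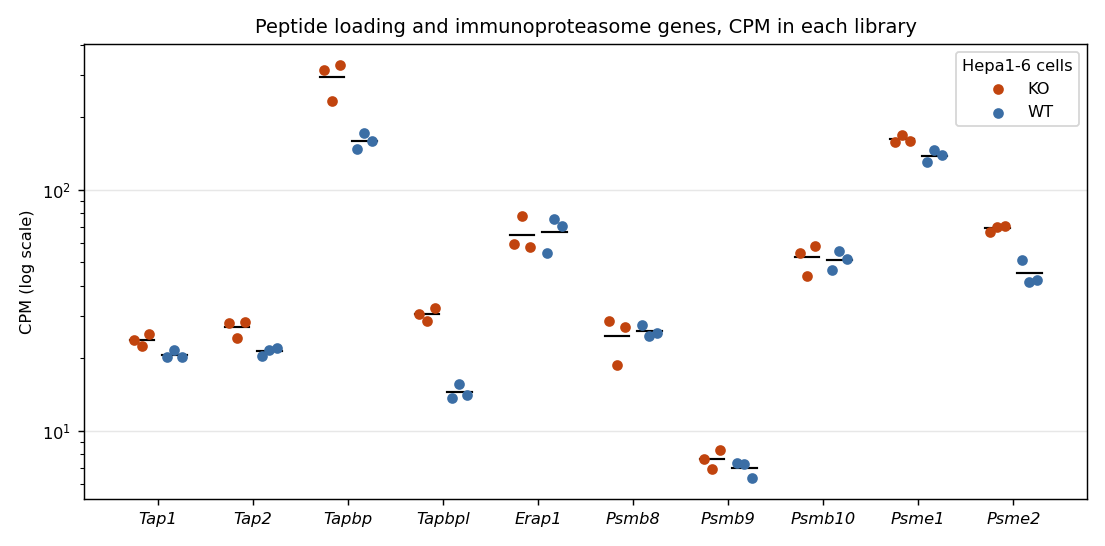
Expression of each gene in CPM on a log axis, with 1 point per library, KO to the left of WT, and a bar at each group's mean. For Tapbpl the 3 KO libraries sit between 28.5 and 32.4 CPM and the 3 WT libraries between 13.6 and 15.6 CPM, while for Psmb9 the groups overlap.

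**Figure D2:**
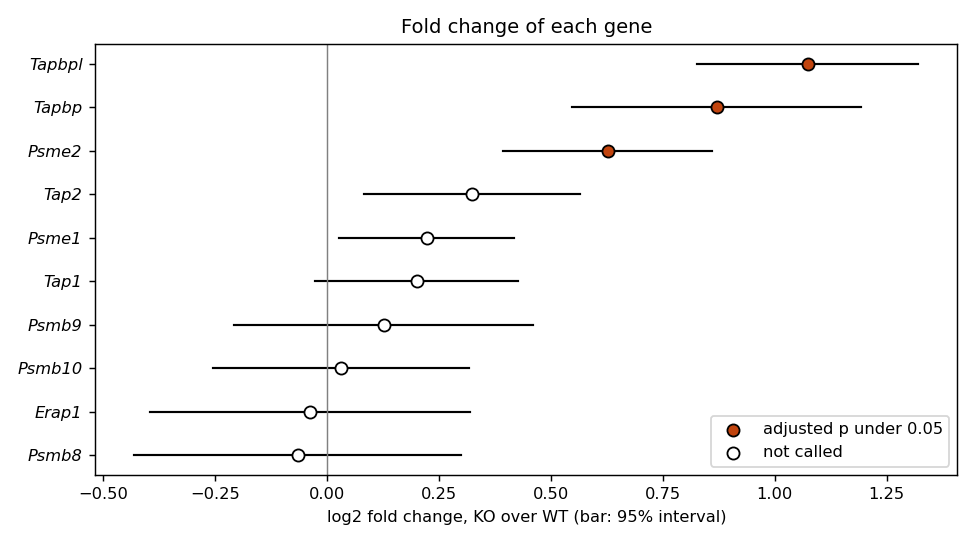
Log2 fold change, KO over WT, of each gene with its 95% interval from the edgeR fit. Filled points passed an adjusted p of 0.05: Tapbpl at 1.07, Tapbp at 0.87 and Psme2 at 0.63.

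Start-site sequences are shown for both called genes that have one in the RefSeq promoter table, Tapbp and Psme2, and for 3 close partners that were not called, Psme1, Tap1 and Psmb8. Of the 10 genes, 8 matched that table, with 9 windows; Tap2 and Tapbpl have no entry in it. Each window runs from 250 bases before to 50 after an annotated start, on build GRCm38.p6, in the direction of the gene. Capitals mark matches, on either strand, to the interferon-stimulated response element core (GAAA, any 2 bases, GAAA), the gamma-activated site TTCNNNGAA, the antioxidant response element core TGACNNNGC, the cAMP response element TGACGTCA, the GC box GGGCGG or an NF-kB site.
Tapbp, chr17:33919228-33919527, plus strand: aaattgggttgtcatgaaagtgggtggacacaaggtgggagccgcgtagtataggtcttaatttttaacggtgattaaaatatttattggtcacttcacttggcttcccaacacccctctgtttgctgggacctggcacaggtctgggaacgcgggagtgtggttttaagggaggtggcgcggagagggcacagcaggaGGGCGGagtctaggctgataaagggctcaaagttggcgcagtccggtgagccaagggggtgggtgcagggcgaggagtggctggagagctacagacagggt
Psme2, chr14:55591052-55591351, minus strand: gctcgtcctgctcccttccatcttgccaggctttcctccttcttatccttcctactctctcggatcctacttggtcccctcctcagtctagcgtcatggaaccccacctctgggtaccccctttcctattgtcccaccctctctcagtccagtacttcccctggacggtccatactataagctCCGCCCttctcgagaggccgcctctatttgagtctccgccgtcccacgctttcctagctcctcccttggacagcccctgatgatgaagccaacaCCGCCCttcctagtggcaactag
Psme1, chr14:55578244-55578543, plus strand: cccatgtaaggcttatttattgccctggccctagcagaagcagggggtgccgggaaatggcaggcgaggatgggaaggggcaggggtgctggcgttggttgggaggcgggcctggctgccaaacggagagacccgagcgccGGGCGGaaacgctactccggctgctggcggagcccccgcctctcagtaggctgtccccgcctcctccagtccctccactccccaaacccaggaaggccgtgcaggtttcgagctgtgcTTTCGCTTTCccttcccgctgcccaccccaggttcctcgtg
Tap1, chr17:34187306-34187605, plus strand: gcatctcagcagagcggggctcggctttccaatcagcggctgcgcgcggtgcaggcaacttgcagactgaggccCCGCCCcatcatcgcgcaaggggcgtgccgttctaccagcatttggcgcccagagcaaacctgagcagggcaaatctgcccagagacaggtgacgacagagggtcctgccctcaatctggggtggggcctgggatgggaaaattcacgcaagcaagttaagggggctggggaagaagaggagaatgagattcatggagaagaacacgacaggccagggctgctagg
Psmb8, chr17:34197945-34198244, plus strand: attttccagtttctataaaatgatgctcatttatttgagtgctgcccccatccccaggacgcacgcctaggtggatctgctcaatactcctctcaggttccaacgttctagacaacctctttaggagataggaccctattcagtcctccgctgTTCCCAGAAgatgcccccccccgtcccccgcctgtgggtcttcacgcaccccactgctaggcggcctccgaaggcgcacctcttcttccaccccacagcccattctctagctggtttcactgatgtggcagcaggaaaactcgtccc

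The Tapbp window held a GC box from -51 to -46 and no other of these motifs, and the Psme2 window held only GC boxes. The Psme1 window held the interferon-stimulated response element core at 10 to 19, just past the start, beside a GC box. Psmb8 had a gamma-activated site from -97 to -89. Psmb9 and Tap1 are read in opposite directions from RefSeq start sites 226 bases apart, so their windows share 275 bases. The GC box seen in Tap1 is the same one that lies upstream of Psmb9. Among all 32851 windows of this length the response element core occurred in 3.44% (2 of the 9 windows here, Psme1 and Erap1), the gamma-activated site in 8.3% (1 of 9) and the GC box in 35.7% (7 of 9). The windows with a GC box belong to Erap1, Psmb9, Psme1, Psme2, Tap1 and Tapbp. They are not separate: Psme2 has 2 overlapping windows with the same GC boxes, and Tap1 and Psmb9 share theirs. Antioxidant elements occurred in 12.4%, NF-kB sites in 4.51% and cAMP elements in 1.79% of all windows and in 0 of these 9. A match is a description of the letters, not evidence that a factor binds there.

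Tapasin and its relative both stood higher in KO cells. Tapbp, which encodes the bridge between the transporter and an empty class I molecule, was at 314, 233 and 330 CPM in KO libraries, against 147, 173 and 160 CPM in WT libraries. KO library 2 was the lowest of its group yet above every WT library. The means were 292 ± 52.1 CPM in KO and 160 ± 12.7 CPM in WT libraries (SD, n = 3 each), a 1.83-fold rise (log2 fold change 0.87, SE 0.141, edgeR quasi-likelihood adjusted p = 0.00669). Tapbp (ENSMUSG00000024308) spans 34134873 to 34148266 on the plus strand of chromosome 17 in the table, and this span holds all 3422 bases of Zbtb22, a zinc finger gene on the same strand. Reads from the shared stretch cannot be assigned to 1 of these genes with certainty. Zbtb22 was at 49.9 ± 11.1 CPM in KO and 34.7 ± 2.59 CPM in WT libraries (log2 fold change 0.52, edgeR adjusted p = 0.0656).

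Tapbpl, which encodes an editor that exchanges peptides on class I molecules outside the loading complex, was at 30.4, 28.5 and 32.4 CPM in KO libraries, against 13.6, 15.6 and 14.1 CPM in WT libraries. The groups were far apart relative to their spread: 30.4 ± 1.97 CPM in KO and 14.4 ± 1.06 CPM in WT libraries (SD, n = 3 each), a 2.10-fold rise (log2 fold change 1.07, SE 0.108, edgeR quasi-likelihood adjusted p = 0.00103). Tapbpl (ENSMUSG00000038213, chromosome 6, 125200896 to 125208823, minus strand) lies wholly inside Vamp1, a vesicle fusion gene on the other strand. The strandedness of the counting is not stated, so reads from the shared stretch cannot be assigned to 1 of these genes with certainty. Vamp1 spans 125192514 to 125222927 and so extends beyond Tapbpl on both sides. Vamp1 rose too, to 11.3 ± 1.01 CPM in KO against 6.16 ± 0.968 CPM in WT libraries (log2 fold change 0.88, edgeR adjusted p = 0.00932). The ratio of Tapbpl to Tapbp, on the per-length FPKM scale, was 14.97%, 18.8% and 15.1% in KO libraries, against 14.3%, 14.0% and 13.6% in WT libraries. All 3 KO values were above the WT values, with KO library 2 the highest, and the difference was 0.22 on the log2 scale (exact permutation test, two-sided, p = 0.1, the smallest that 3 against 3 allows).

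The transporter genes lay slightly higher in KO cells without passing the test. Tap2 was at 28.1, 24.2 and 28.2 CPM in KO libraries, against 20.4, 21.7 and 22.1 CPM in WT libraries. Its log2 fold change was 0.32 (95% interval 0.08 to 0.57, edgeR adjusted p = 0.0723). Without KO library 2 the adjusted p was 0.0135 (log2 fold change 0.40, edgeR), and with library totals alone it was 0.0487. Without any other single library it was 0.112 to 0.216 (edgeR). It was 0.140 with the replicate block in edgeR and 0.103 with DESeq2. Tap1 was at 23.8, 22.4 and 25.2 CPM in KO libraries, against 20.3, 21.6 and 20.2 CPM in WT libraries, a narrow gap with no overlap. For Tap1 the log2 fold change was 0.20 (95% interval -0.03 to 0.43, edgeR adjusted p = 0.210). Erap1, the peptidase that shortens peptides in the endoplasmic reticulum, was at 59.5, 78.1 and 57.8 CPM in KO libraries, against 54.7, 75.3 and 70.6 CPM in WT libraries. KO library 2 was here the highest of its group and WT library 1 the lowest of its own, and the groups overlapped widely (log2 fold change -0.04, 95% interval -0.39 to 0.32, edgeR adjusted p = 0.892). Erap1 has the lowest GC content of the 10 genes, 41.5%, against 52.8% to 57.3% in the other 9 and a median of 49.9% over the tested genes.

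The catalytic subunits of the immunoproteasome showed no difference beyond their spread. Psmb8, which encodes the chymotrypsin-like subunit beta5i, was at 28.6, 18.8 and 26.9 CPM in KO libraries, against 27.3, 24.7 and 25.6 CPM in WT libraries. KO library 2 was the lowest of all 6 and KO library 1 the highest. The 95% interval of its log2 fold change ran from -0.43 to 0.30 around -0.07 (edgeR adjusted p = 0.813). Psmb9, which encodes beta1i, had the lowest counts of the 10 genes, at 7.67, 6.96 and 8.34 CPM in KO libraries, against 7.37, 7.30 and 6.35 CPM in WT libraries. Its interval was -0.21 to 0.46 around 0.13 (edgeR adjusted p = 0.591), and 212 bases of Psmb9 overlap Tap1 on the other strand. Psmb10, which encodes beta2i, was at 54.8, 44.0 and 58.4 CPM in KO libraries, against 46.7, 55.5 and 51.6 CPM in WT libraries, with an interval of -0.25 to 0.32 around 0.03 (edgeR adjusted p = 0.887). Over the 3 subunits, the intervals allow log2 differences between -0.43 and 0.46.

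Of their 3 constitutive counterparts, Psmb6 and Psmb7 rose. Psmb6, which encodes the subunit that Psmb9 replaces, was at 300, 273 and 309 CPM in KO libraries, against 196, 211 and 211 CPM in WT libraries (log2 fold change 0.52, SE 0.0891, edgeR adjusted p = 0.00838). Psmb7, the counterpart of Psmb10, was at 261, 267 and 259 CPM in KO libraries, against 184, 199 and 202 CPM in WT libraries (log2 fold change 0.43, SE 0.0829, edgeR adjusted p = 0.0127). Both rose with no overlap between the groups. The call of Psmb6 ended without KO library 3 (edgeR adjusted p = 0.0508), and that of Psmb7 without KO library 1 or 3 or WT library 2 or 3 (0.0594 to 0.0619). Psmb5, the counterpart of Psmb8, was at 122, 95.6 and 127 CPM in KO libraries, against 88.9, 102 and 99.2 CPM in WT libraries, where KO library 2 fell among the WT values. Its log2 fold change was 0.25 (edgeR adjusted p = 0.210). With 1 library left out it was 0.19 to 0.37 (edgeR adjusted p from 0.0146, without KO library 2, to 0.479).

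Within each library, the immunoproteasome subunits stood lower relative to their counterparts in KO cells. On the FPKM scale (counts scaled by gene length and library size), Psmb8 was at 6.25%, 5.22% and 5.63% of Psmb5 in KO libraries, against 8.18%, 6.47% and 6.85% in WT libraries. Psmb9 was at 1.31%, 1.30% and 1.38% of Psmb6 in KO libraries, against 1.92%, 1.77% and 1.54% in WT libraries. Psmb10 was at 42.2%, 33.0% and 45.2% of Psmb7 in KO libraries, against 50.9%, 56.0% and 51.3% in WT libraries. In all 3 pairs each KO library was below each WT library, and the differences of the log2 ratio were -0.33, -0.39 and -0.41. Of single tested genes 36.6% did not overlap between the groups, and no such share was computed for ratios. The ratios restate the single genes: log2 fold changes were -0.07, 0.13 and 0.03 for Psmb8, Psmb9 and Psmb10. They were 0.25, 0.52 and 0.43 for Psmb5, Psmb6 and Psmb7. Each exact two-sided permutation test gave p = 0.1, the smallest that 3 against 3 allows, and adjusted over the 4 ratios tested it stayed at 0.1. These ratios depend on the gene length used: with the longest coding transcript of GENCODE M21 in place of the table's gene length, the mean for Psmb8 was 11.8% in KO and 14.9% in WT libraries, for Psmb9 1.53% and 2.01%, and for Psmb10 17.7% and 23.3%. The difference between the groups does not depend on it.

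**Figure D3:**
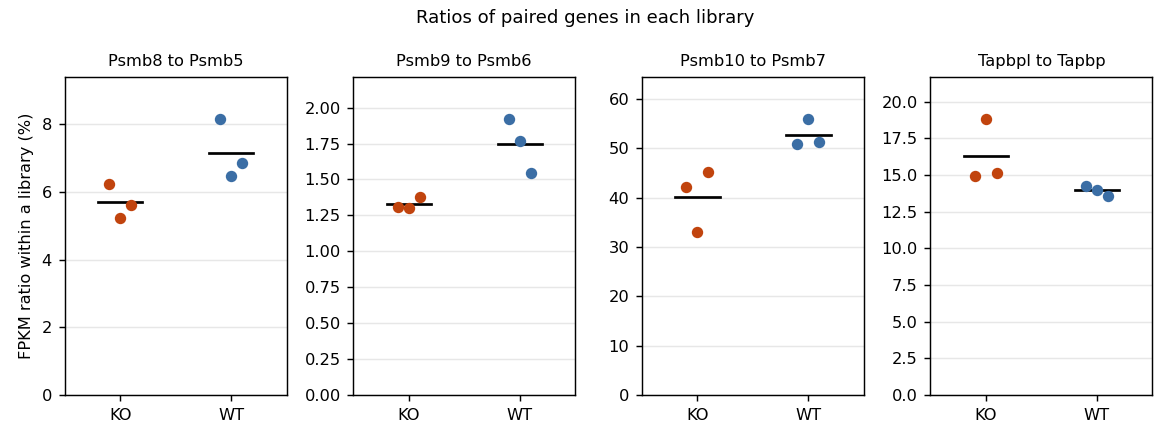
Ratio of FPKM values of paired genes within each library, in percent, with 1 point per library, KO to the left of WT, and a bar at the mean; each axis starts at 0. The ratios of the 3 immunoproteasome subunits to their counterparts lie lower in KO libraries (Psmb10 to Psmb7 at 33.0% to 45.2%, against 50.9% to 56.0% in WT libraries), and Tapbpl to Tapbp lies higher.

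The subunit genes of the PA28 cap differed in how far they stood from the WT level. Psme2, which encodes PA28 beta, was at 66.9, 70.3 and 70.9 CPM in KO libraries, against 51.0, 41.6 and 42.2 CPM in WT libraries. WT library 1 was the highest of its group, and no library crossed into the other group. The means were 69.4 ± 2.15 CPM in KO and 44.9 ± 5.26 CPM in WT libraries (SD, n = 3 each), a 1.54-fold rise (log2 fold change 0.63, SE 0.102, edgeR quasi-likelihood adjusted p = 0.00673). Psme1, which encodes PA28 alpha, was at 158, 168 and 159 CPM in KO libraries, against 130, 146 and 139 CPM in WT libraries. It did not pass (log2 fold change 0.22, 95% interval 0.03 to 0.42, edgeR adjusted p = 0.115). The ratio of Psme2 to Psme1 on the FPKM scale, chosen after its values were seen and not tested, was 53.0%, 52.4% and 55.8% in KO libraries, against 49.0%, 35.6% and 38.0% in WT libraries.

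Psme2 has a near copy, Psme2b (ENSMUSG00000078153, chromosome 11), and reads can be split between them. The longest coding transcripts of GENCODE M21 were identical at 789 of 794 aligned bases, 99.4%. Psme2b was at 118, 101 and 122 CPM in KO libraries, against 65.9, 71.9 and 69.6 CPM in WT libraries, so more reads were assigned to the copy than to Psme2 itself. Its log2 fold change was 0.72 (SE 0.0997, edgeR adjusted p = 0.00357). The sum of both genes was 185, 171 and 193 CPM in KO libraries, against 117, 113 and 112 CPM in WT libraries, a log2 ratio of means of 0.68. The rise was seen on either row and in the sum. As reads can be split between the copies, neither the level nor the rise can be assigned to Psme2 alone. The other activators did not pass: Psme3, which encodes PA28 gamma of the nucleus, had a log2 fold change of -0.19 (edgeR adjusted p = 0.205) and Psme4, which encodes PA200, of -0.20 (0.352). Without KO library 2, edgeR called 1 of the 4 other activators and inhibitors lower.

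Levels per length differed widely among the 10 genes, and their order depended in part on the gene length used. In FPKM on the table's gene length, Tapbp was at 80.6 ± 14.1 in KO and 43.8 ± 3.88 in WT libraries, and Psme1 at 73.3 ± 2.85 in KO and 62.3 ± 4.18 in WT libraries (SD, n = 3 each). On the length of the longest coding transcript of GENCODE M21, Tapbp was at 101 ± 17.6 in KO and 54.8 ± 4.86 in WT libraries, and Psme1 at 146 ± 5.65 in KO and 123.9 ± 8.30 in WT libraries. Tapbp thus stood above Psme1 on average in KO libraries by the first length, with overlapping values, and below it by the second. Psme2 was at 39.4 ± 1.39 FPKM in KO and 25.3 ± 2.66 FPKM in WT libraries by the table's length, and Psmb10 at 30.8 ± 4.30 FPKM in KO and 29.9 ± 2.86 FPKM in WT libraries. By transcript length Psme2 was the higher of the pair in both groups, at 72.2 ± 2.54 in KO and 46.4 ± 4.88 in WT libraries, against 39.99 ± 5.59 in KO and 38.8 ± 3.72 in WT libraries for Psmb10. These 4 genes were the highest of the 10 by either length. Tapbpl was at 12.9 ± 0.805 FPKM in KO and 6.10 ± 0.494 FPKM in WT libraries, and Erap1 at 8.96 ± 1.59 FPKM in KO and 9.13 ± 1.56 FPKM in WT libraries. Psmb8 was at 7.32 ± 1.52 FPKM in KO and 7.60 ± 0.311 FPKM in WT libraries by the table's length, and at 15.2 ± 3.17 in KO and 15.8 ± 0.646 in WT libraries by transcript length. Tap2 was at 7.10 ± 0.574 FPKM in KO and 5.62 ± 0.285 FPKM in WT libraries, and Tap1 at 4.35 ± 0.241 FPKM in KO and 3.75 ± 0.165 FPKM in WT libraries. Psmb9 was the lowest of the 10 by either length, at 2.09 ± 0.183 FPKM in KO and 1.90 ± 0.143 FPKM in WT libraries by the table's length.

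Over 9 lists of other genes of the pathway, 9 of 93 tested genes rose and 3 fell by edgeR, where 15.2% of all tested genes were called in either direction, so the share called was near that of all genes. In the list of the constitutive 20S core and its assembly factors 2 of 19 genes rose (Psmb6 and Psmb7) and 0 fell, with a median log2 fold change of 0.06 (edgeR quasi-likelihood test). At an unadjusted p under 0.05 5 were higher and 0 lower, while DESeq2 called 3 higher, voom 2 and limma on FPKM 2, with 0 lower in each. Of all 14842 tested genes, 2306 were higher and 2301 lower at that unadjusted p. Without KO library 2 edgeR called 7 higher and 1 lower, without KO library 3 it called 0 higher, and without KO library 1, WT library 2 or WT library 3 it called 1. Calls over all genes moved too, from 1142 higher and 1110 lower with all libraries. They were 2286 and 2009 without KO library 2, and 455 and 377 without KO library 3. In the 19S regulatory particle 0 of 19 genes passed (median 0.04), with 2 higher and 2 lower at an unadjusted p under 0.05 and 0 called by the other tools; without KO library 2 edgeR called 2 higher and 2 lower, without WT library 1 it called 2 lower, and with library totals alone 1 higher. Nfe2l1, which encodes the factor that restores proteasome genes when proteasomes fail, was at 689, 437 and 709 CPM in KO libraries, against 346, 374 and 348 CPM in WT libraries. It rose (log2 fold change 0.78, SE 0.174, edgeR adjusted p = 0.0216), and was 1 of 4 proteasome recovery regulators that did. Its call held only without KO library 2 when 1 library was left out at a time, and ended without any of the other 5 (edgeR adjusted p from 0.0611 to 0.0831). Of the same 4 regulators edgeR called 0 lower, but 2 without KO library 2, 1 without WT library 1, and 1 lower and 2 higher with the GC and length trend removed. Of these regulators 2 were lower at an unadjusted p under 0.05, and 0 by the other tools.

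Among 8 endoplasmic reticulum genes listed for class I folding, not all of them chaperones, 0 passed (median 0.04, edgeR quasi-likelihood test). At an unadjusted p under 0.05 1 was higher and 0 lower, and 0 passed by the other tools. Calr, which encodes calreticulin, and Pdia3, the disulfide partner of tapasin, had log2 fold changes of 0.03 and -0.21. Of 11 other peptide-trimming peptidases 0 passed (median -0.03; 2 higher and 1 lower at an unadjusted p under 0.05, and 0 by the other tools), and 0 of 7 tested genes of interferon gamma signalling did (median 0.02; 0 higher and 1 lower at an unadjusted p under 0.05, and 0 by the other tools). Ifng itself had 0 counts in every library. Without KO library 2, edgeR called 1 gene of the folding list higher, and 1 peptidase higher and 1 lower. It also called 1 gene of interferon gamma signalling in each direction. Without WT library 1 it called 2 peptidases lower, and after removal of the GC and length trend it called 2 higher.

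The class I chains moved in different directions. Of 8 tested chains 3 rose and 1 fell (edgeR quasi-likelihood test, median 0.10), where 7.69% of all tested genes rose and 7.48% fell. The nonclassical chain H2-T23 was at 28.4, 26.1 and 33.0 CPM in KO libraries, against 11.0, 11.6 and 11.99 CPM in WT libraries (log2 fold change 1.34), and H2-T22 rose by 0.69. H2-M3, which presents formylated peptides, rose by 0.38 (edgeR adjusted p = 0.0470), a call that ended without KO library 1 or 3 or WT library 2 or 3 (0.123 to 0.158) with DESeq2 (adjusted p = 0.0573), with no filter on low counts (0.0587) and after removal of the GC and length trend (0.0518). B2m, the light chain shared by class I molecules, was at 376, 425 and 403 CPM in KO libraries, against 503, 563 and 597 CPM in WT libraries. It fell by 0.47 on the log2 scale (edgeR adjusted p = 0.0186), and this call ended without the same 4 libraries (0.0812 to 0.130) and with limma on FPKM (adjusted p = 0.0623). The classical chains H2-K1 and H2-D1, which carry most peptides, had log2 fold changes of 0.06 and -0.03 (edgeR adjusted p = 0.715 and 0.888). Reads of the closely related H2 genes can be split among them, so each single H2 value is uncertain.

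Of 13 tested transcriptional regulators of the pathway 2 rose, 2 fell and 9 did not pass (edgeR quasi-likelihood test, median 0.16). Of all tested genes 7.69% rose and 7.48% fell. Nlrc5, the transactivator of class I, Tap1 and Psmb9 promoters, was at 3.27, 4.44 and 2.74 CPM in KO libraries, against 16.1, 10.5 and 11.7 CPM in WT libraries, a fall of all 3 KO libraries below the WT range (log2 fold change -1.87, SE 0.234, edgeR adjusted p = 0.00262). Irf1, which encodes a factor that binds interferon response elements, was at 65.0, 55.6 and 63.6 CPM in KO libraries, against 42.5, 41.2 and 36.0 CPM in WT libraries (log2 fold change 0.62, edgeR adjusted p = 0.00733). The NF-kB subunit gene Relb rose by 0.68 and the interferon regulatory factor gene Irf8 fell by 0.53 on the log2 scale. The call of Irf8 ended without KO library 1 or 3 or WT library 2 or 3 (edgeR adjusted p from 0.0512 to 0.0666), which leaves 1 regulator called lower in each case, and without WT library 1 edgeR called 4 regulators higher. Rfx5, part of the factor complex at class I promoters, did not pass (log2 fold change 0.16, edgeR adjusted p = 0.361).

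**Figure D4:**
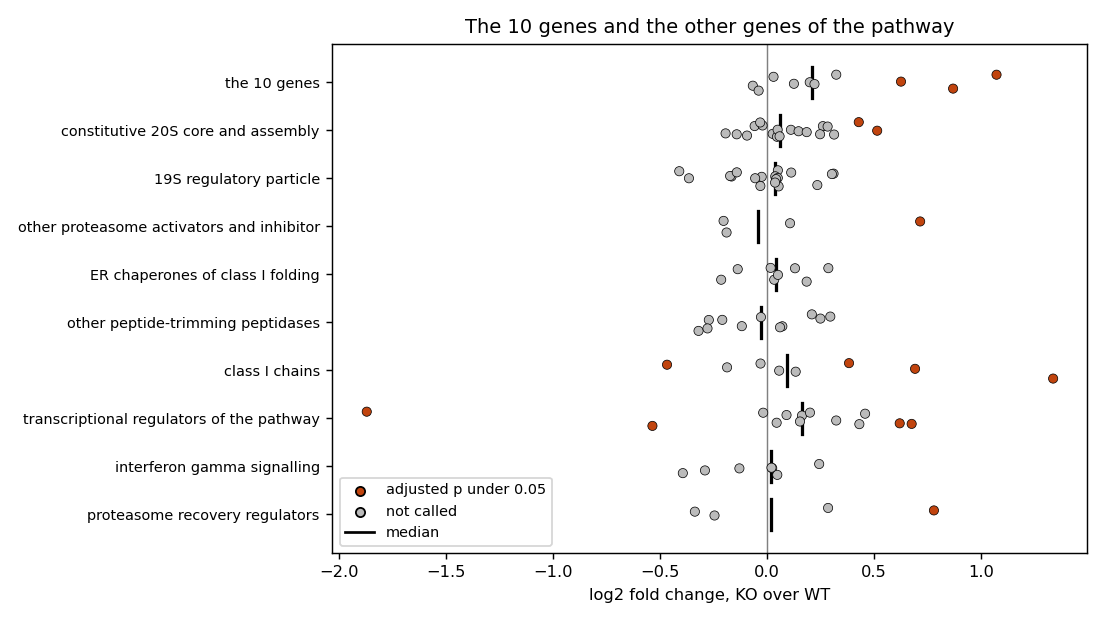
Log2 fold change, KO over WT, of the 10 genes and of every tested gene in 9 lists of the same pathway, with a bar at each list's median; orange points passed an adjusted p of 0.05. Of the 10 genes 3 passed, all higher, where 7.69% of all tested genes passed as higher and 7.48% as lower. The other lists ran from 0 of 19 in the 19S regulatory particle to 3 higher and 1 lower of 8 class I chains. Nlrc5 lies farthest left at -1.87.

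By position, Psmb9, Tap1, Psmb8 and Tap2 form a single cluster of the MHC region on chromosome 17, from 34400961 to 34435295 in the table, and none of the 4 was called. Tapbp lies 258260 bases from Tap1, and Psme1 and Psme2 face each other on chromosome 14 with 5911 bases between them. Within 100 kb of the 10 genes there were 57 other tested genes, and 6 of them rose while 3 fell by edgeR (median 0.08); of all tested genes, 15.2% were called in either direction. Those called were Ring1 (0.68) and AA388235 (-1.31) near Tapbp, Nop2 (-0.59) and Vamp1 near Tapbpl, Pck2 (0.64), Emc9 (0.91), Ipo4 (-0.63) and Tinf2 (0.46) near Psme1 and Psme2, and Cast (0.39) beside Erap1. AA388235 was low, at a mean of 0.672 CPM in KO and 1.66 CPM in WT libraries. Emc9 overlaps Psme1 by 14 bases and Cast overlaps Erap1 by 834, both from the other strand. Near the cluster of 4 genes, 0 of the 3 neighbours tested (Brd2, H2-DMa and Gm50335) passed by edgeR, with log2 fold changes from -0.11 to 0.12. H2-DMa averaged 1.51 CPM in KO and 1.53 CPM in WT libraries, and Gm50335 0.782 and 0.722 CPM. At such low levels their estimates are loose (SE 0.374 and 0.539). The count of neighbours that rose was 15 without KO library 2, 2 without KO library 3, and 1 without KO library 1, WT library 2 or WT library 3. It was 13 with no filter on low counts, and 5 neighbours fell with the GC and length trend removed. Over all genes 2286 rose without KO library 2 and 455 without KO library 3, against 1142 with all libraries. The calls of Ring1, AA388235, Pck2, Emc9 and Cast ended without KO library 1 or 3 or WT library 2 or 3, and that of Tinf2 without KO library 1 or WT library 2 or 3 (edgeR adjusted p from 0.0536 to 0.122).

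**Figure D5:**
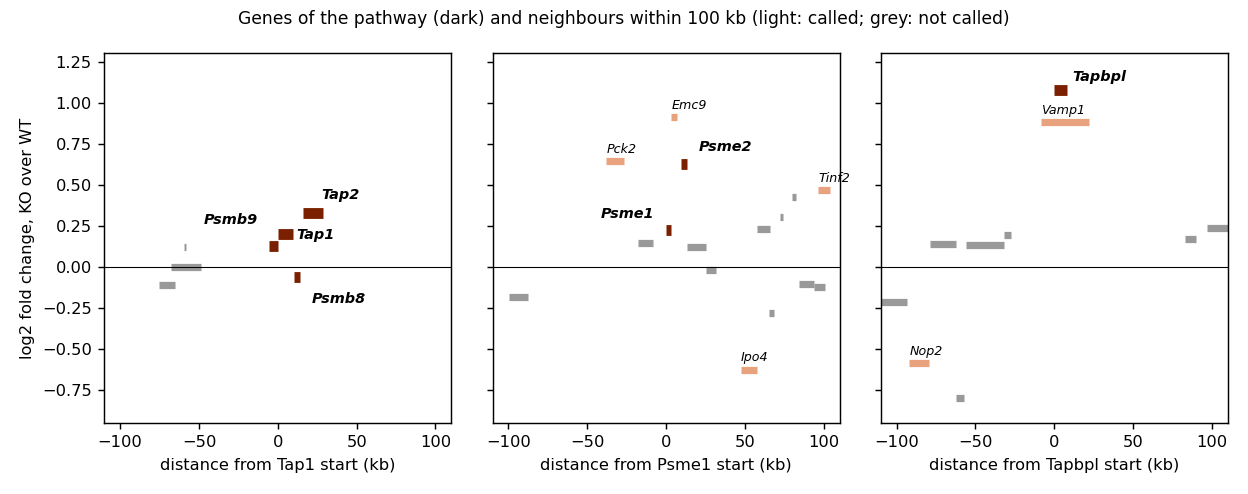
Log2 fold change, KO over WT, against the distance in kb from the start of Tap1, Psme1 or Tapbpl, on the coordinates of the deposited table; each bar spans a gene. The 4 genes of the Tap1 cluster lie between -0.07 and 0.32, whereas Tapbpl at 1.07 lies within the span of Vamp1 at 0.88.

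The genes most like Tapbpl across the 6 libraries, by the root mean square difference of centred log2 CPM among 10823 genes averaging 5 CPM or more, were Elf3, Aldoc and Fat4, with differences of 0.03, 0.07 and 0.07 on the log2 scale. Elf3, an epithelial transcription factor gene, was at 48.2, 42.1 and 48.8 CPM in KO libraries, against 21.1, 23.8 and 21.9 CPM in WT libraries. They were chosen by their likeness over the same libraries, so their own fold changes add no test.

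The authors' deposited table called the same 3 of the 10 genes under an adjusted p of 0.05, with log2 fold changes of 1.00 for Tapbpl, 0.82 for Tapbp and 0.60 for Psme2. The other 7 had adjusted p-values from 0.0994 (Tap2) to 0.941 (Erap1) in the authors' deposited table. With each library's trend with GC content and length removed, an alternative chosen after seeing the data, Tapbpl, Tapbp and Psme2 had log2 fold changes of 0.99, 0.80 and 0.56 (edgeR adjusted p = 0.000503, 0.00164 and 0.00661). Leaving out any 1 library kept all 3 calls (edgeR adjusted p from 0.000413 to 0.0415).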

How the data were processed

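The authors deposited 1 table of raw counts per gene, with FPKM values, group means of scaled counts (a signal), log2 fold changes and p-values of the authors' own comparison, per the file headers. No label or header states the aligner, counter or strandedness. GRCm38 and mm10 are named in the submitters' processing notes, yet 1494 of 52081 identifiers shared with GENCODE M21 of GRCm38, and 0 of the 10 genes, have the same start and end, so the build of the table's coordinates is not settled. Counts were fitted over all genes in R 4.3.3 with edgeR 4.0.16: filterByExpr left 14842 of 27065 genes with a count, TMM scaled the libraries, and the quasi-likelihood test compared KO with WT without covariates. Benjamini-Hochberg adjustment ran over the tested genes. Standard errors follow from the F statistic. CPM use the TMM-adjusted library size. The code was tested on simulated data. Alternatives used limma 3.58.1 and DESeq2 1.42.0. Members and lists were chosen with earlier results of these data known. The named genes were the 10 genes, Matr3, their counterparts and 4 regulators (1 is not reported here), up to 4 called genes with the smallest p per list, every called neighbour within 100 kb and the 3 genes most like the top called gene; Zbtb22, Psme3, Psme4, Calr, Pdia3, H2-K1, H2-D1 and the uncalled neighbours were named after their values were seen.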

Additional observations from a re-analysis of the deposited data

How the results depend on the processing

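Over 17 alternatives, Tapbpl, Tapbp and Psme2 kept their direction and call in 17 of 17, with log2 fold changes of 0.97 to 1.14, 0.80 to 1.01 and 0.56 to 0.74. The number of the 10 genes called higher was 3 to 4 when 1 library was left out, with 0 lower, and 6 higher and 1 lower with both KO replicate 2 and WT replicate 1 left out, where Tap1, Tap2 and Psme1 passed and Erap1 was lower; only 2 libraries a group then set the spread. In that fit all genes gave 3750 higher and 3806 lower calls, the context lists gave 26 and 25, and Psmb8 turned to 0.14. At an adjusted p under 0.01 all genes gave 347 higher and 374 lower, and the context lists gave 1 lower. Leaving out 1 library gave 393 to 2286 higher and 377 to 2009 lower calls over all genes, and 5 to 19 and 1 to 11 in the context lists. Values near 0 changed sign: Psmb10 was -0.084 and Erap1 0.061 with the GC and length trend removed, Erap1 was 0.00023 with no filter, and leaving out 1 library gave -0.15 to 0.11 for Psmb8, -0.028 to 0.15 for Psmb10 and -0.19 to 0.067 for Erap1. The cause was not tested. The 4 ratios kept their direction in 8 of 8 alternatives each, from -0.40 to -0.23 for Psmb8, -0.47 to -0.32 for Psmb9, -0.50 to -0.27 for Psmb10 and 0.11 to 0.28 for Tapbpl; with 1 library left out no p below 0.2 can be had.

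Replicate numbers are shared between groups, but same-numbered libraries did not deviate together (correlations across genes of 0.17, -0.03 and -0.20), so the numbers are not taken as pairs. With the replicate block the calls over all genes were 786 higher and 813 lower, against 1142 and 1110, and the same 3 of the 10 genes were called (Tapbp at 0.86, Tapbpl at 1.07 and Psme2 at 0.63). The block ended the calls of H2-M3 (adjusted p = 0.0915), AA388235 (0.0675) and Cast (0.0542).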
